A study of Mus musculus with 18 samples.

Results

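The genes of the mixed-lineage leukaemia (MLL, also KMT2) methyltransferase complexes were examined in regulatory T cells (Tregs) that had lost the chromatin remodeler CHD8. They are the 10 genes Kmt2a, Kmt2b, Kmt2c, Kmt2d, Wdr5, Rbbp5, Ash2l, Dpy30, Men1 and Kdm6a, named for their known place in the KMT2 and WDR5 complex with which CHD8 associates, out of 35865 genes listed under a single name in the RNA table. The rule uses no measured value, but the genes were proposed with earlier results of these data known. The comparison asked how the RNA of each subunit stood in Chd8-/- Tregs against WT Tregs.

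KMT2 enzymes add methyl groups to lysine 4 of histone H3 (H3K4), a mark found at active promoters and enhancers. Each enzyme has little activity alone and works with a shared core of WDR5, RBBP5, ASH2L and DPY30, which holds and stimulates its catalytic SET domain. Menin joins the complexes of MLL1 and MLL2, while the H3K27 demethylase UTX joins those of MLL3 and MLL4, and CHD8 is a chromodomain helicase that has been found with the WDR5 core. In T cells, MLL family enzymes and menin are known for maintaining the expression programme of differentiated and memory cells.

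RNA-seq was carried out on 2 WT and 2 Chd8-/- libraries of splenic CD4+ T cells sorted for yellow fluorescent protein (YFP), which with the Cre recombinase is made from the X-linked Foxp3 locus, so that deletion is directed to cells that express Foxp3, the transcription factor that defines Tregs. The Chd8-/- libraries are labelled CHD8Flox/FloxFoxp3YFP-Cre and the WT libraries CHD8flox/floxFoxp3YFP-Cre/+, and all carry the label Poly IC injection, a treatment that the methods of the study do not describe. A floxed Chd8 allele with a Cre allele is thus named for the WT libraries too, whereas the study describes them as WT littermates, and the grouping of the study was used. The study worked with young sex-matched mice, and the labels do not say whether a library came from 1 mouse or from pooled mice, so the p-values measure only the spread between these libraries. Values are TPM, transcript abundances that are scaled by gene length and by library. Setting them side by side between genes assumes reads drawn from along the whole transcript. The labels name both a 10X assay and an Illumina kit, so this could not be checked. Levels, shares and ratios between genes below are given on that assumption. Tests were run with limma on log2(TPM + 1) over the 15240 genes that reached 1 TPM in at least 2 libraries, a filter that all 10 complex genes passed.

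Chd8 itself was listed at 14.9 and 11.4 TPM in Chd8-/- replicates 1 and 2, and at 24.7 and 27.6 TPM in WT replicates 1 and 2. The libraries did not overlap, with a Chd8-/- mean 0.503 times the WT mean and a log2 fold change of -0.95 (SE 0.29, limma adjusted p = 0.455). The TPM cover the whole gene and not the floxed exons alone. The sorted cells carried Treg transcripts, with Foxp3 between 202.8 and 232.1 TPM in all libraries. The sum over the list of 7 Treg markers was 3342.2 to 4005.7 TPM in Chd8-/- and 3582.7 to 3692.1 TPM in WT libraries. That list includes Cd4 and Cd3e, which are not particular to Tregs, and Cd3e alone had 1548 and 1528 TPM in WT. Of the 7 markers, 2 were higher (Ctla4 and Tnfrsf18) and 2 lower (Cd4 and Cd3e) in Chd8-/- libraries without overlap. The same held for 14.8% and 27.8% of all genes tested. In the sums of myeloid and erythroid markers, Chd8-/- replicate 2 lay above both WT libraries and replicate 1 below them. The 6 myeloid markers of replicate 2 summed to 1479.2 TPM against 33.2 in replicate 1 and 116.5 to 134.9 in WT, with Lyz2 the most abundant at 1360 TPM. S100a8 was higher in both Chd8-/- libraries, at 5.3 and 16.5 TPM against 0 in both WT libraries (log2 fold change 3.39). The other 4 myeloid markers tested overlapped. The 5 erythroid markers of replicate 2 summed to 1945.6 TPM against 8.5 in replicate 1, where Hbb-bs, Hbb-bt and Hba-a2 were listed at 0, and 351.3 to 384.5 in WT. The excess lay in the globin genes Hbb-bs, Hbb-bt, Hba-a1 and Hba-a2. Alas2 went the other way, at 8.0 and 7.5 TPM in Chd8-/- replicates 1 and 2 and 15.0 and 21.5 TPM in WT. Of the B cell genes, Cd79a was at 73.7 TPM in Chd8-/- replicate 2 and at 10.1 to 21.8 in the others, and Ms4a1 at 53.0 TPM against 0.1 to 5.6. Cd79b was instead lowest in that library, at 8.9 TPM against 12.4 to 17.6, and Cd22 lay between 0.6 and 2.1 in all libraries. The 5 CD8 and NK markers summed to 11.3 and 51.1 TPM in Chd8-/- and 44.4 and 28.4 TPM in WT libraries, and Ncr1 was above 0 in WT replicate 1 only. The 5 proliferation markers summed to 717.2 and 737.5 TPM in Chd8-/- and 560.7 and 582.3 TPM in WT libraries, most of it Pcna, with 2 of the 5 genes higher without overlap, 0 lower, and Mcm5 (-0.34) and Ccnb1 (-0.48) below 0 on the log2 scale. Values for the complex genes are therefore also given without Chd8-/- replicate 2, and the part of other cells in them was not tested. Without replicate 1, the log2 fold changes were -0.36 for Kmt2a, -0.6 for Kmt2b, -0.45 for Kmt2c and -0.62 for Kmt2d. They were 0.43 for Wdr5, -0.82 for Rbbp5, -0.06 for Ash2l, -0.8 for Dpy30, 0.86 for Men1 and -0.21 for Kdm6a. In bulk RNA, fewer cells of a type and less RNA per cell cannot be told apart.

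None of the 10 complex genes had an adjusted p under 0.05 in limma, and the same held for all 15240 genes tested (0.0% called, smallest adjusted p = 0.0807). At an unadjusted p under 0.05, 0 of the 10 complex genes passed, whereas 10.2% of all genes did (1555 genes). The libraries of the genotypes did not overlap for 5 of the 10 complex genes, as for 42.6% of all genes. Of these 5 genes, 4 were lower in both Chd8-/- libraries than in both WT libraries, which held for 27.8% of all genes, and 1 was higher, which held for 14.8%. The 4 lower genes were the 4 KMT2 enzymes, and the higher one was Men1. The other 5, the 4 core subunits and Kdm6a, overlapped between the genotypes. The median log2 fold change over the 10 genes was -0.34, beside -0.15 over all genes tested, and 7 of the 10 lay below 0, as did 61.5% of all genes. That median was -0.23 without Chd8-/- replicate 2, -0.21 without WT replicate 2, -0.18 with quantile normalization and -0.026 with the trend on exon length removed. Quantile normalization and removal of the trend also take out the general shift, with medians of 0.00 and 0.03 over all genes. The plot of levels by library shows these values.

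**Figure D1:**
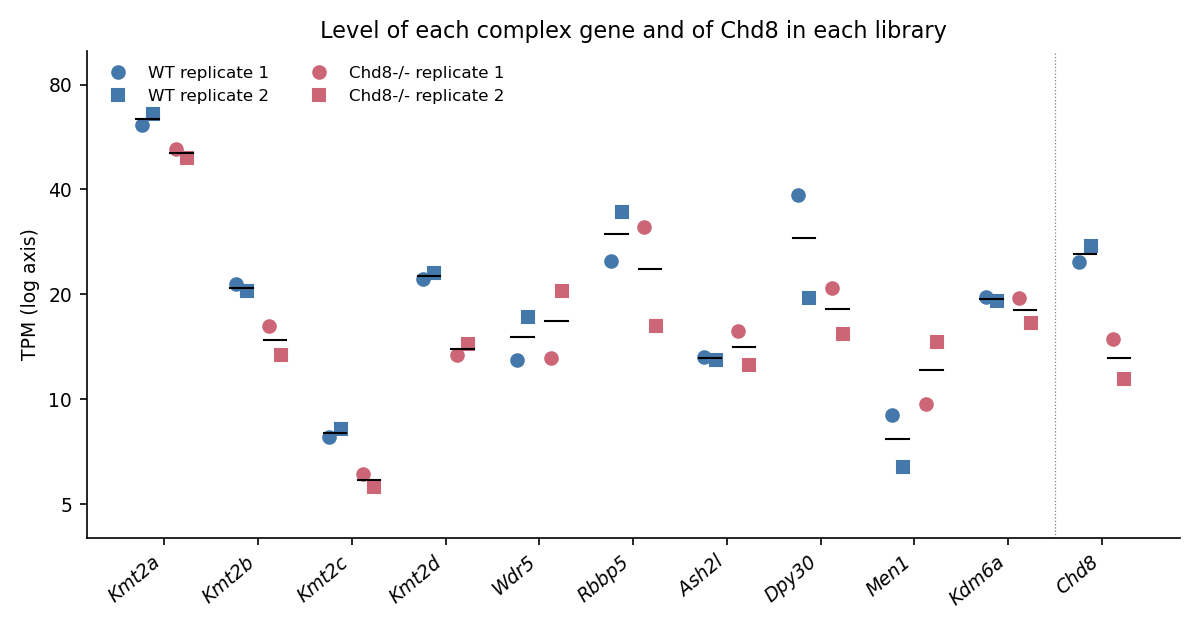
TPM of the 10 complex genes and of Chd8 (log axis) in WT (blue) and Chd8-/- (red) libraries, with replicate 1 as circles, replicate 2 as squares and each black line the mean of 2 libraries. The red points lie below the blue points for the 4 KMT2 enzymes and above them for Men1, and the points of the core subunits and Kdm6a overlap.

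Among the enzymes, Kmt2a encodes MLL1, the founding member, which maintains Hox gene expression. Chd8-/- Tregs had 52.3 and 49.3 TPM of it, and WT Tregs 61.4 and 66.0 TPM. Both Chd8-/- libraries lay below both WT libraries. The log2 fold change was -0.32 (SE 0.20, 95% interval -0.86 to 0.22, limma adjusted p = 0.641), with a mean 0.797 times that of WT, and 37.8% of all genes tested had a value as low or lower. Without Chd8-/- replicate 2 it was -0.28.

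Kmt2b encodes MLL2, the closest relative of MLL1, which methylates H3K4 at promoters. Its levels were 16.2 and 13.4 TPM in Chd8-/- and 21.4 and 20.4 TPM in WT Tregs, again with no overlap. The log2 fold change was -0.48 (SE 0.28, 95% interval -1.23 to 0.27, limma adjusted p = 0.618), and it was -0.35 without Chd8-/- replicate 2. The Chd8-/- mean was 0.708 times the WT mean.

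Kmt2c and Kmt2d encode MLL3 and MLL4, which place a single methyl group on H3K4 at enhancers. Kmt2c had 6.1 and 5.6 TPM in Chd8-/- and 7.8 and 8.2 TPM in WT Tregs, with a log2 fold change of -0.39 (SE 0.34, 95% interval -1.30 to 0.51, limma adjusted p = 0.722) and -0.34 without Chd8-/- replicate 2. Kmt2d had 13.4 and 14.4 TPM in Chd8-/- and 22.1 and 23.1 TPM in WT Tregs. It had the lowest log2 fold change of the 10 genes at -0.66 (SE 0.27, 95% interval -1.38 to 0.05, limma adjusted p = 0.508), a Chd8-/- mean 0.615 times the WT mean, and -0.71 without Chd8-/- replicate 2. In both genes the Chd8-/- libraries lay below the WT libraries, and each interval still holds 0.

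The replicates of the enzymes lay close together. The median SD between replicates over the 4 enzymes on the log2(TPM + 1) scale was 0.071 for Chd8-/- and 0.046 for WT libraries, beside 0.368 and 0.228 over all genes tested. Over all 10 complex genes it was 0.199 and 0.06, and Kmt2b alone had 0.181 in Chd8-/- libraries. The spread of genes of like level or length was not compared. Summed over the 4 enzymes, TPM was 88.0 and 82.7 in Chd8-/- and 112.7 and 117.7 in WT Tregs, that is 85.4 ± 3.75 and 115 ± 3.54 (mean ± SD, n = 2 each). With 2 libraries in each genotype, an exact permutation test cannot give a p below 0.333, so none was used for single sums. With the libraries rescaled to give a median log2 ratio of 0, the log2 fold changes were -0.17 for Kmt2a, -0.33 for Kmt2b, -0.24 for Kmt2c and -0.51 for Kmt2d.

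**Figure D2:**
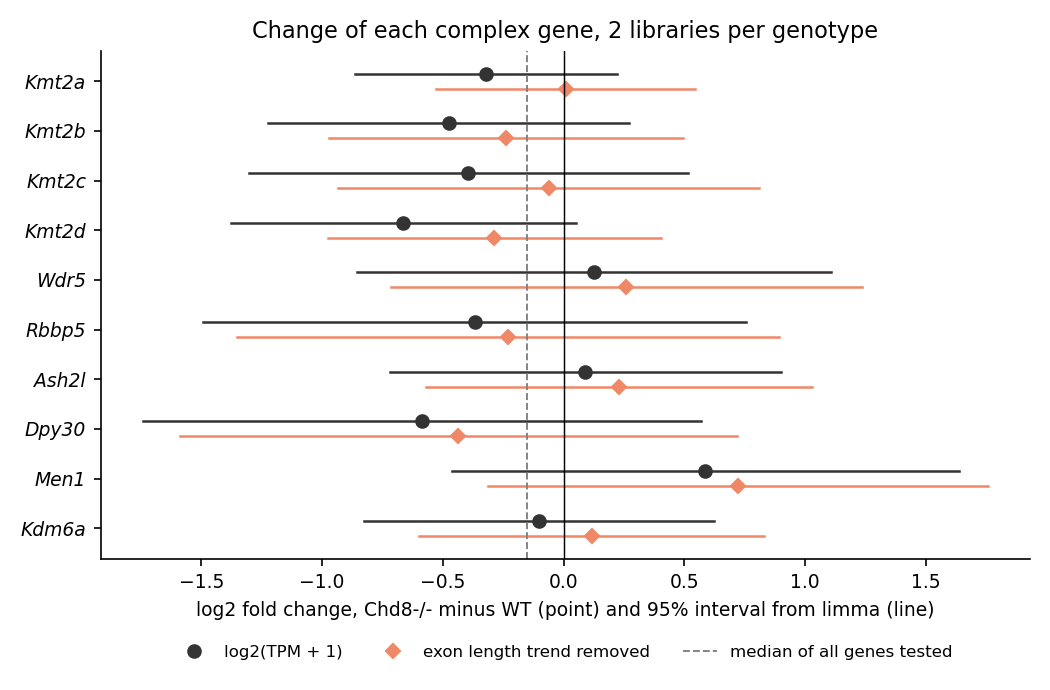
Log2 fold change of the 10 complex genes, Chd8-/- minus WT, with 95% intervals from limma (2 libraries per genotype), as measured (black circles) and with the trend on exon length removed (orange diamonds). Every interval crosses 0, the dashed line marks the median of all genes at -0.15, and with the trend removed Kmt2a moves from -0.32 to 0.01 and Kmt2d from -0.66 to -0.29. The trend removed includes the general shift between the genotypes.

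The 4 enzyme transcripts are long, with summed exon lengths of 16810 nt for Kmt2a, 8857 nt for Kmt2b, 17130 nt for Kmt2c and 22866 nt for Kmt2d in RefSeq, and differences between the genotypes varied with length across all genes. Of the genes tested, 94.5% had an exon length. All 4 enzymes fall in the longest of 10 length classes of equal size (1441 genes of 8039 to 107403 nt), whose median log2 fold change was -0.26, against -0.16 in the shortest class, -0.05 in class 3 and -0.15 over all genes tested, and the medians did not run steadily with length. In the longest class the median difference from the WT mean was -0.19 for Chd8-/- replicate 1 and -0.33 for replicate 2 (0.03 and -0.36 in the shortest class), whereas WT replicate 2 differed from WT replicate 1 by 0.09. Over all genes the same medians were -0.04, -0.24 and 0.07.

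**Figure D3:**
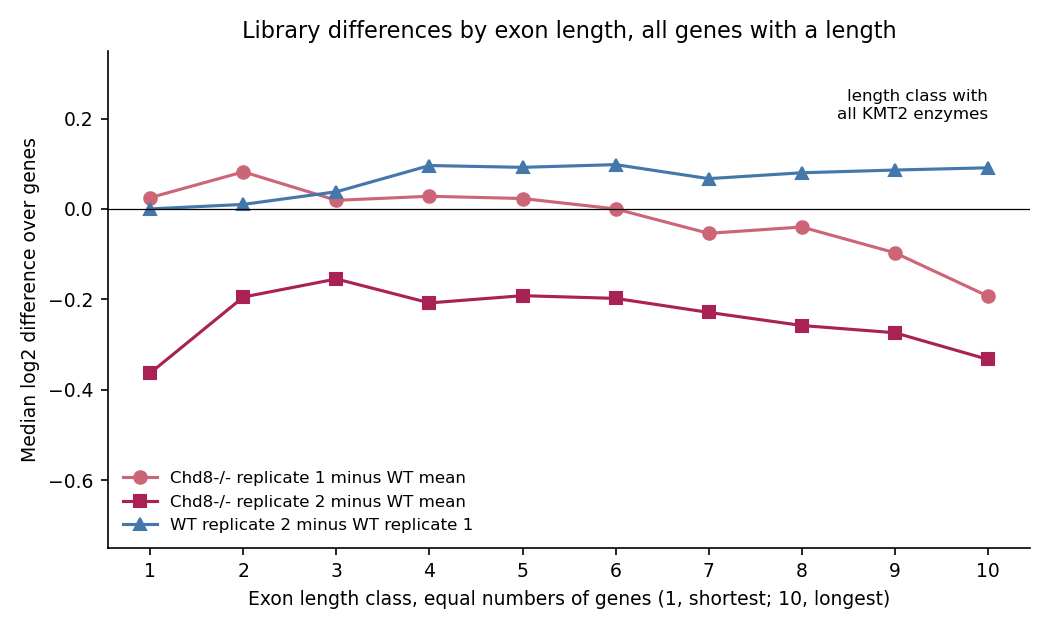
Median log2 difference in TPM over genes in each of 10 classes of exon length (1 shortest, 10 longest) for each Chd8-/- library minus the WT mean and for WT replicate 2 minus WT replicate 1. In the longest class, which holds all 4 KMT2 enzymes, the medians were -0.19 for Chd8-/- replicate 1, -0.33 for replicate 2 and 0.09 between the WT replicates.

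Each enzyme was therefore set beside other genes of at least its length. For Kmt2a there were 197 such genes, whose median was -0.39 on the log2 scale, and 57.4% had a value as low as that of Kmt2a or lower. For Kmt2c there were 189 with the same median of -0.39, and 49.7% lay at or below it. Kmt2a and Kmt2c thus stood near the middle of the genes of their length. For Kmt2b the share at or below was 29.1% of 1138 genes, and for Kmt2d it was 27.7% of 83 genes. No overlap with lower values in Chd8-/- libraries, the order seen for all 4 enzymes, held for 61.9%, 49.8%, 61.4% and 60.2% of the genes at least as long as Kmt2a, Kmt2b, Kmt2c and Kmt2d, against 27.8% of all genes. With the trend on length removed, the log2 fold changes were 0.01 for Kmt2a, -0.24 for Kmt2b, -0.06 for Kmt2c and -0.29 for Kmt2d (95% interval -0.98 to 0.40). Kmt2a thus no longer lay below 0. The fitted trend was subtracted whole, so it also holds the general shift between the genotypes. It was -0.33 for Kmt2a and -0.15 for Dpy30, a gene of 1147 nt. With only the median log2 ratio set to 0, Kmt2a was at -0.17. The lower enzyme levels and the trend on length move together here, and their parts were not tested.

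Kmt2a led the enzyme pool in every library. It made up 59.4% and 59.6% of the summed enzyme TPM in Chd8-/- Tregs and 54.5% and 56.1% in WT Tregs, so that its share was higher without overlap. Kmt2d made up 15.2% and 17.4% in Chd8-/- and 19.6% in both WT libraries, lower without overlap. The shares of Kmt2b (16.2% to 18.4% and 17.3% to 19.0%) overlapped, and those of Kmt2c lay between 6.77% and 6.97% in all 4 libraries. No test was run on these shares.

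**Figure D4:**
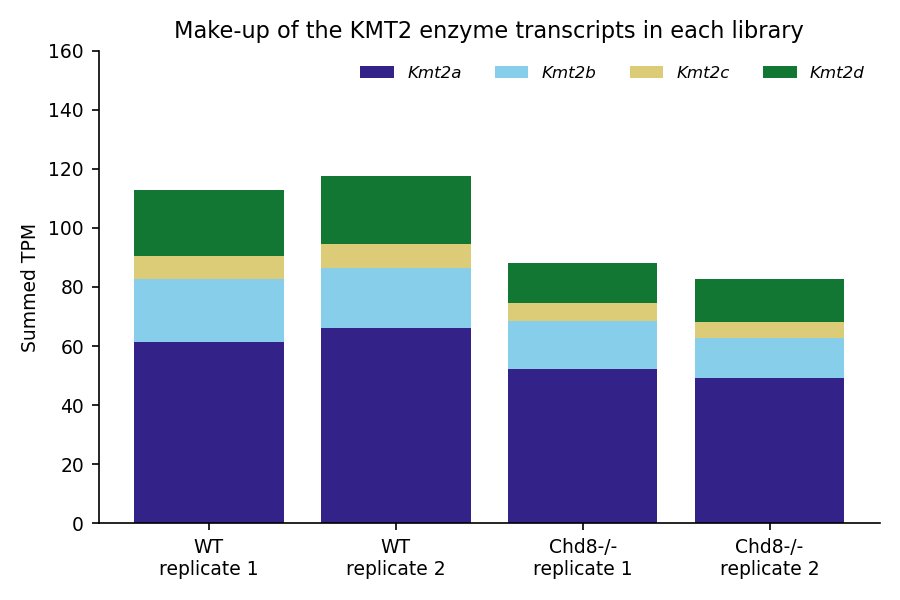
Stacked TPM of Kmt2a, Kmt2b, Kmt2c and Kmt2d in each of the 4 libraries, with the bar height giving their sum. The sums are 112.7 and 117.7 TPM in WT and 88.0 and 82.7 TPM in Chd8-/- libraries, and Kmt2a is the largest layer in each bar.

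Short stretches before the transcription start of 3 of the enzyme genes are shown because their promoters are rich in CG dinucleotides, the sequence that the CXXC domain of MLL1 recognises when unmethylated. They come from RefSeq promoters in build GRCm38.p6 (250 bases before to 50 bases after a start), which matched 8 of the 10 complex genes, and are written 5′ to 3′ on the strand of the gene. Each is the 30-base window around the GC box nearest before the start, at chr9:44881311-44881340 (minus strand) for Kmt2a, chr5:25498792-25498821 (minus) for Kmt2c and chr15:98871259-98871288 (minus) for Kmt2d. The starts used by the 3 entries, and these windows, lie inside the spans of the genes. Capitals mark the box, CCGCCC, which is GGGCGG on the other strand.
Kmt2a: ccctccgcctccCCGCCCccctgtgttgtc
Kmt2c: cccgcttgcccgCCGCCCcccgccggcccc
Kmt2d: gctcgggattcgCCGCCCtggggctgttca
The promoter entry of Kmt2c held 56 CG pairs, at or above 99.8% of the 32851 promoters, that of Kmt2a 36 (94.4%) and that of Kmt2d 27 (85.8%). Entries of the other complex genes held from 1 (14.1%) to 39 (96.1%), both in Dpy30, so such richness is not particular to the enzymes. GGGCGG, searched on both strands, was found in 7 of the 8 complex genes with an entry and in 35.66% of all promoters. A gene counts here if any of its entries holds the motif, and Dpy30 and Men1 have several entries. The counts of genes and the shares of promoters are therefore not like measures. CCAAT was found in Dpy30 and Men1 and in 37.41% of promoters, while CCGGAAG (8.86% of promoters) and TATAAA (13.62%) were found in none of the 8. These motifs were chosen after the RNA values were seen, and a match is a description of the letters. In the same build the enzyme genes lie at chr9:44803355-44881352 (Kmt2a), chr7:30568855-30589056 (Kmt2b), chr5:25271795-25498855 (Kmt2c) and chr15:98831669-98874077 (Kmt2d), all on the minus strand. Kmt2a overlaps Gm39326, Kmt2b overlaps Gm32082 and Kmt2c overlaps Hspe1-ps3 and Gm18343, and since the use of strand in counting is not stated, shared reads of these pairs cannot be told apart.

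The 4 subunits of the shared core did not separate the genotypes. Wdr5 (chr2:27515147-27536535), whose protein binds the tail of histone H3 and the enzyme, had 13.1 and 20.5 TPM in Chd8-/- and 13.0 and 17.2 TPM in WT Tregs, with a log2 fold change of 0.13 (95% interval -0.86 to 1.11, limma adjusted p = 0.924). Rbbp5 (chr1:132477348-132505665), which with ASH2L stimulates the SET domain, had 31.2 and 16.2 TPM in Chd8-/- and 25.0 and 34.5 TPM in WT Tregs, with -0.37 (95% interval -1.49 to 0.75, adjusted p = 0.791). Without Chd8-/- replicate 2, Wdr5 turned to -0.18 and Rbbp5 to 0.08, and without WT replicate 1 Wdr5 was -0.06. The Chd8-/- libraries of both genes lay on either side of a WT library. Ash2l (chr8:25816000-25847694) had 15.7 and 12.5 TPM in Chd8-/- and 13.2 and 13.0 TPM in WT Tregs, with 0.09 (95% interval -0.72 to 0.90, limma adjusted p = 0.936). Dpy30 (chr17:74299474-74323944), the smallest subunit, had 20.9 and 15.4 TPM in Chd8-/- and 38.5 and 19.5 TPM in WT Tregs, with -0.59 (95% interval -1.74 to 0.57, limma adjusted p = 0.682). The value of Dpy30 rested on WT replicate 1, since without that library it was -0.11. Without Chd8-/- replicate 2, Dpy30 was at -0.38 and Ash2l at 0.24, and without Chd8-/- replicate 1 Ash2l was at -0.06. The lower bound of each of these 4 intervals lay below the log2 fold change of every enzyme, so a difference of the size seen in the enzymes lies within the error of the core genes.

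Summed over the core, TPM was 80.9 and 64.6 in Chd8-/- and 89.7 and 84.2 in WT Tregs, so the sums did not overlap. The ratio of the enzyme sum to the core sum was 1.09 and 1.28 in Chd8-/- and 1.26 and 1.40 in WT Tregs, and these ratios overlapped.

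Men1 (chr19:6334979-6340894), which encodes menin, the adaptor that ties MLL1 and MLL2 to chromatin, was the only one of the 10 genes to lie higher in Chd8-/- Tregs without overlap. Chd8-/- Tregs had 9.7 and 14.6 TPM of it, and WT Tregs 9.0 and 6.4 TPM. The gap between the nearest libraries, Chd8-/- replicate 1 and WT replicate 1, was small beside the spread within each genotype. The log2 fold change was 0.59 (SE 0.39, 95% interval -0.46 to 1.64, limma adjusted p = 0.656), and 11.7% of all genes had a value as high or higher. Without Chd8-/- replicate 2 it was 0.31. With the trend on length removed, general shift included, it was 0.72 (limma adjusted p = 0.610).

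Kdm6a (chrX:18160862-18279936) encodes UTX, which removes methyl groups from H3K27 in the MLL3 and MLL4 complexes and escapes X inactivation. Its level was 19.5 and 16.6 TPM in the Chd8-/- and 19.7 and 19.1 TPM in the WT libraries. For it the log2 fold change was -0.10 (SE 0.27, 95% interval -0.83 to 0.62, limma adjusted p = 0.915), and it was 0.01 without Chd8-/- replicate 2 and 0.05 with the median log2 ratio set to 0. Because Kdm6a is X-linked, the sex-linked genes were also read. Xist, the RNA of the inactive X chromosome, had 701.5 and 500.2 TPM in Chd8-/- and 843.3 and 816.8 TPM in WT libraries, and the Y-linked genes Ddx3y, Eif2s3y, Uty and Kdm5d were listed at 0 in all 4. The study describes a male and a female in each genotype, whereas no library here held RNA of these 4 Y-linked genes, and a heterozygous label at the X-linked Foxp3 locus is one that females carry.

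By level, Kmt2a was the highest of the 10 genes in both genotypes (63.7 ± 3.25 TPM in WT and 50.8 ± 2.12 TPM in Chd8-/-, mean ± SD, n = 2) and lay apart from the next gene, Rbbp5, in each. In WT Tregs the next levels were Rbbp5 at 29.8, Dpy30 at 29.0 and Kmt2d at 22.6 TPM, whose neighbours overlapped in their libraries. Kmt2d, Kmt2b (20.9) and Kdm6a (19.4) each lay apart from the next gene in that order. Wdr5 (15.1) overlapped with Ash2l (13.1), and Kmt2c (8.0) overlapped with Men1 (7.7). In Chd8-/- Tregs every pair of neighbours from Rbbp5 (23.7) down to Men1 (12.2) overlapped, and Kmt2c (5.85) lay apart as the lowest. Kmt2d thus stood at the fourth place in WT and the eighth in Chd8-/- Tregs, and Men1 was the lowest in WT and the ninth in Chd8-/- Tregs, with the order of close genes within the spread of the libraries.

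Genes that work beside the complex were read from lists of known function. Of 13 other subunits and partners of the H3K4 methyltransferase complexes, 0 had an adjusted p under 0.05 in limma and 0 an unadjusted p under 0.05, 5 were lower and 1 higher in Chd8-/- without overlap (27.8% and 14.8% of all genes), and the median log2 fold change was -0.18. The lowest were Hcfc2, a host cell factor subunit, at 8.6 and 6.8 TPM in Chd8-/- and 11.8 and 15.2 TPM in WT Tregs (-0.73), and Setd1a, the enzyme of another H3K4 complex, at 12.4 and 8.4 against 13.8 and 16.8 TPM (-0.53). The partner proteins of the MLL3 and MLL4 complexes lay on opposite sides, with Paxip1 at 8.8 and 10.4 against 11.7 and 14.2 TPM (-0.39) and Pagr1a at 99.4 and 80.2 against 66.6 and 76.2 TPM (0.32).

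In the list of H3K4 demethylases, which remove the mark, and their scaffold, 7 of 8 tested genes had a log2 fold change below 0. The same held for 61.5% of all genes. Of the 9 genes in that list 8 were tested, and 0 passed at an adjusted or an unadjusted p under 0.05 in limma. Without overlap, 4 were lower and 0 higher (27.8% and 14.8% of all genes), and the median log2 fold change was -0.27. Those 4 were Rcor1, the CoREST scaffold (-0.47), Kdm5b (-0.46), Kdm2b (-0.42) and Kdm5a (-0.33). Kdm5a had 69.5 and 68.6 TPM in Chd8-/- and 90.1 and 84.4 TPM in WT Tregs. These medians stand beside -0.15 over all genes tested.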

How the data were processed

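RNA-seq of 4 libraries of YFP+ splenic Tregs was analysed. They were grouped into WT and Chd8-/- as in the study, although the genotype labels name a floxed Chd8 allele for both groups. The authors trimmed the reads (Trim Galore 0.4.2, cutadapt 1.9.1), aligned them to mm10 (STAR 2.6.1e), stripped duplicates, counted the rest per RefSeq gene (featureCounts 1.6.2) and deposited TPM rounded to 0.1. Duplicate removal lowers the highest levels most, and long genes gather more reads per TPM. The depth behind the TPM is not given in the sources used here, so no counting interval was computed. Labels name both a 10X assay and an Illumina kit for these libraries.

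The 35869 rows include 4 whose name is repeated, which were not used. Genes that reached 1 TPM in at least 2 libraries were compared as log2(TPM + 1) in limma 3.58.1 under R 4.3.3, with a mean-variance trend in the moderation, a two-sided test, and p adjusted by Benjamini-Hochberg over all genes tested at a threshold of 0.05. The fit was also run on simulated data with known changes. A fold change on this scale understates that of low genes. Exon lengths, positions and promoters came from RefSeq for GRCm38.p6, and tables and plots were made in Python 3.11.15 with pandas 2.3.3 and matplotlib 3.10.9.

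The complex genes, gene lists and tests were chosen with earlier results of these data known. All 10 complex genes and Chd8 are given in full, and in each other list every gene is counted and up to 4 tested genes with the largest absolute log2 fold change are named. Suz12 and some cell type markers are named besides these. Lists covered other complex subunits, H3K4 demethylases, PRC2 with H3K27 demethylases, the NSL complex, H3K4 readers, MLL targets, CHD8 partners, sex-linked genes and cell type markers. One marker is not reported here, nor the sum of its list. Alternatives were 2 other pseudocounts (0.1 and 5 TPM), the filter dropped or set at 5 TPM on average, quantile normalization, the median log2 ratio set to 0, no trend, a replicate block, the trend on exon length removed (loess), and each library left out. The loess fit was subtracted whole, general shift included. A sex term was not fitted, since all 4 libraries had Xist and lacked the Y-linked genes read. Accessible chromatin and CHD8 binding at these genes were not analysed here, because peaks are placed in mm39 and the annotation used is GRCm38.p6.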

Additional observations from a re-analysis of the deposited data

How the results depend on the processing

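With 2 libraries per genotype, 95% intervals wider than 1 log2 unit for each of the 10 genes limit what can be told of single subunits, and the read depth behind the TPM was not known. The number of genes called was 0 in each of the 13 alternatives except at a mean TPM of at least 5, where 2 of 11351 genes passed (Cdkn1a and Mir7649, named after their values were seen, adjusted p = 0.0347 for each), and 0 of the 10 complex genes passed in any. Their smallest adjusted p ranged from 0.279 to 0.971 over the alternatives. The median log2 fold change of the complex genes (-0.34) moved to -0.18 with quantile normalization, to -0.19 with the median log2 ratio set to 0 and to -0.026 with the trend on length removed, where the medians of all genes were 0.00, 0.00 and 0.03. It ranged from -0.41 to -0.21 with each library left out. Kmt2a turned to 0.01 with the length trend removed. Kdm6a turned to 0.06 with quantile normalization, 0.05 with the median log2 ratio set to 0 and 0.12 with the length trend removed, and lay between -0.21 and 0.01 with each library left out. In the same runs Ash2l lay between -0.06 and 0.24, Rbbp5 between -0.82 and 0.08, and Wdr5 between -0.18 and 0.43. Dpy30 lay between -1.06 and -0.11 and Men1 between 0.31 and 0.86. In all alternatives Kmt2b, Kmt2c, Kmt2d and Dpy30 stayed below 0 and Men1 above 0. The share of Kmt2a in the enzyme sum ranged from 54.5% to 56.1% in WT and from 59.4% to 59.6% in Chd8-/-. Where a library was left out, the lone library was assumed to vary like the others. With a replicate block, 0 genes were called (smallest adjusted p = 0.552, and 0.663 among the complex genes). Same-numbered libraries did not deviate together (correlation -0.012 over 15240 genes), so the numbers were not taken as pairs. The sex term and all alternatives for chromatin at the promoters were not run. Causes of these differences were not tested.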

Other observations

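Genes that read H3K4 methylation through PHD fingers or chromodomains had log2 fold changes below 0 in 9 of 10 cases, as did 61.5% of all genes, and 6 of the 10 overlapped between the genotypes. Of the 11 genes in that list, Cxxc5, which is not such a reader, did not pass the filter and the other 10 were tested. Of these, 0 had an adjusted p under 0.05 in limma and 1 an unadjusted p under 0.05, beside 10.2% of all genes. By order, 3 were lower and 1 higher without overlap (27.8% and 14.8% of all genes), and the median log2 fold change was -0.26 against -0.15 over all genes. The gene at an unadjusted p under 0.05 was Ing5, a subunit of histone acetyltransferase complexes, at 11.7 and 12.8 TPM in Chd8-/- and 21.0 and 21.9 TPM in WT Tregs (-0.76, limma adjusted p = 0.481). Ing1 (-0.67) and Ing4 (-0.29) overlapped between the genotypes, and the demethylase Phf8 (-0.35) was lower without overlap.

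WDR5 also serves the NSL acetyltransferase complex. Of its 8 genes, 3 were lower and 1 higher without overlap, beside 27.8% and 14.8% of all genes, with 0 past an adjusted or an unadjusted p under 0.05 in limma and a median log2 fold change of -0.25. Mcrs1 had 17.8 and 7.0 TPM in the Chd8-/- and 19.7 and 34.2 TPM in the WT libraries (-1.14), and its replicates differed widely in both genotypes. Kansl2 (-0.62) and Kansl1 (-0.27) were lower without overlap, and Kansl3 (-0.27) overlapped.

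The list of PRC2 subunits, which act against MLL proteins, and of H3K27 demethylases had a median log2 fold change of 0.02 over 6 tested of 7 genes. Of the 6, 0 passed an adjusted or an unadjusted p under 0.05 in limma. Without overlap, 2 were higher (Eed and Suz12) and 1 lower, beside 14.8% and 27.8% of all genes. Suz12 had 85.7 and 81.2 TPM in Chd8-/- and 72.8 and 81.1 TPM in WT Tregs (0.12), so its nearest libraries differ by no more than the rounding of the values. Eed, the subunit that reads H3K27 methylation, had 30.8 and 33.5 TPM in Chd8-/- and 20.9 and 29.9 TPM in WT Tregs (0.35), and the demethylase Kdm6b at 8.5 and 6.6 against 8.9 and 9.3 TPM (-0.25). Jarid2 (0.24) and Ezh1 (-0.17) overlapped.

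Of 9 textbook targets of MLL and menin, 4 passed the filter on low values, since Hoxa7, Hoxa9, Hoxa10, Meis1 and Mef2c were at 0.2 TPM or less in every library. The cyclin-dependent kinase inhibitor Cdkn2c, a menin target, had 12.5 and 13.2 TPM in Chd8-/- and 9.9 and 7.9 TPM in WT Tregs (0.49). It was the only one of the 4 without overlap, whereas 42.6% of all genes did not overlap and 14.8% were higher. Of the 4, 0 passed an adjusted p under 0.05 in limma and 0 an unadjusted p under 0.05, beside 10.2% of all genes for the latter. Cdkn1b (0.17), Hoxa5 (-0.37) and Pbx3 (-0.01) overlapped. Among 5 genes of CHD8 and its partners, Chd8 alone had an unadjusted p under 0.05 in limma and 0 had an adjusted p under 0.05. Chd8 and Chd7 (-0.13) were the 2 lower without overlap and 0 were higher, beside 27.8% and 14.8% of all genes. Ctcf (-0.25), Ctnnb1 (0.16) and Trp53 (-0.15) overlapped. Of 9 sex-linked genes 5 were tested, and 0 passed an adjusted or an unadjusted p under 0.05 in limma. Xist alone was lower without overlap, beside 27.8% of all genes, and 0 were higher.

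Of 136 genes placed on the Y chromosome, 3 to 6 were listed above 0 in each library. In the Chd8-/- libraries most of that signal was the predicted gene Gm33272, named after its values were seen, at 22.1 and 24.9 TPM in Chd8-/- and 1.8 and 1.0 TPM in WT libraries. No cause was tested.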
